A study of Mus musculus with 10 samples.

Results

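MHC class II molecules display peptides from proteins taken up by a cell to CD4+ T cells, and they are carried mainly by B cells, dendritic cells and macrophages. An alpha and a beta chain pair in the endoplasmic reticulum with the invariant chain (Cd74), which blocks the groove, and in the endosome H2-DM exchanges the last piece of invariant chain for a peptide while H2-DO holds H2-DM back. Ciita is a coactivator of class II gene transcription. The genes described here are the 10 of this machinery named by function: the invariant chain gene Cd74, the coactivator gene Ciita, the classical chain genes H2-Aa, H2-Ab1 and H2-Eb1, the H2-DM genes H2-DMa, H2-DMb1 and H2-DMb2, and the H2-DO genes H2-Oa and H2-Ob. They are 10 of 33585 genes in the tables, found by Ensembl identifier and symbol, and all 10 passed the filter of a mean of at least 1 FPKM (fragments scaled by transcript length and by the mapped fragments of the library) that left 13334 genes for testing.

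RNA was measured by bulk RNA-seq in tumor-draining lymph nodes (TDLNs) of BALB/c mice that carried tumors of 4T1, a mammary carcinoma line of BALB/c origin, in 5 libraries of the MWA group and 5 of the MWA+2DG group collected on day 15. In both groups the primary tumor had been destroyed by microwave ablation (MWA), which the study's methods place on day 10 after tumor inoculation. The MWA+2DG mice then received 2-deoxyglucose (2DG), a glucose analog that inhibits glycolysis, and by the methods the dose was 500 mg/kg into the peritoneum every 2 days from day 10, with PBS in its place for the MWA mice. The methods give female wild-type mice of 6 weeks, and no node without ablation enters the comparison. The question for these genes was whether 2DG after ablation went with another level of the class II machinery in the node, and whether that level followed the B cell or the dendritic cell genes.

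The deposited values hold no read counts, so the depth of each library and its counting error are unknown, and the 10 libraries had between 24289 and 25184 genes above 0. Node tissue was as labelled, with Cd79a, a signaling chain gene of the B cell receptor, at 503 ± 35.4 FPKM in MWA and 487 ± 58.5 in MWA+2DG (SD, n = 5 each, as for every mean below), and Ccl21a, a chemokine gene of the node stroma, at 1180.5 ± 217 and 1208 ± 281. Replicates 1 and 2 of both groups stood apart from replicates 3 to 5 on the first principal component, which held 36.4% of the variance, with 4 scores of 0.297 to 0.369 against 6 of -0.526 to 0.0249. A hepatocyte list (Alb, Apoa1 and others) moved with the same split, its mean log2(FPKM + 1) lying between 0.655 and 0.708 in replicates 1 and 2 and between 3.04 and 4.17 in replicates 3 to 5. The labels name no batch for these sets. Differences within each set are therefore given beside the pooled ones. Beyond these sets the replicate numbers were not taken to pair libraries, and each p-value sets a group difference against the spread between libraries.

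Class II promoters carry an X box, which the RFX complex binds, followed by a Y box, which NF-Y binds, and Ciita docks on the assembled factors. A RefSeq promoter (GRCm38.p6, 250 bases before to 50 after the start) was found for 7 of the 10 genes, and all 7 of these are on chromosome 17. The letters searched, on both strands, were ATTGG for the Y box and, for the core of the X box, GNAAC followed by TG after 3 free bases (N stands for any base). The Y box letters stood in 7 of 7 genes and in 37.4% of the 32851 promoters in the table, the X core letters in 3 of 7 and in 11.6%. A gene was counted if any of its promoters matched, whereas the shares are over single promoters. For H2-DMa the Y box letters stood in the second of its promoters alone. The bases after that start were not found in a transcript of the gene, while those of its first promoter were. An X core followed by a Y box 10 to 40 bases further on was found in H2-Eb1, H2-DMb1 and H2-Ob, 3 of 7, and in 0.359% of all promoters. It was also found in H2-Eb2, a class II chain gene outside the group. Windows just upstream of the start are given for these 3 genes, since they carry the arrangement, with the matched letters in capitals, from chr17:34305756-34305832 for H2-Eb1, chr17:34153077-34153154 for H2-DMb1 and chr17:34238798-34238872 for H2-Ob, all on the plus strand.
H2-Eb1: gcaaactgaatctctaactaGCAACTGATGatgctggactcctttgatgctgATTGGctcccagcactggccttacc
H2-DMb1: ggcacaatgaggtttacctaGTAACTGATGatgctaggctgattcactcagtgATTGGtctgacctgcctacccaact
H2-Ob: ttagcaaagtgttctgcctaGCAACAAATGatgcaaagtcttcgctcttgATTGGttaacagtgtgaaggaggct

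In these windows the gap from the X core to the Y box was 22 bases for H2-Eb1, 23 for H2-DMb1 and 20 for H2-Ob, and the Y box began 59, 61 and 57 bases before the start. The next 3 windows, from H2-DMb2 (chr17:34145104-34145183, plus strand), H2-Aa (chr17:34287847-34287926, minus strand) and H2-Oa (chr17:34092281-34092360, plus strand), stand beside them because the Y box letters alone were matched. H2-DMb2 is the near copy of H2-DMb1, and H2-Aa and H2-Oa are the alpha chain genes whose levels are set against their beta chains further on.
H2-DMb2: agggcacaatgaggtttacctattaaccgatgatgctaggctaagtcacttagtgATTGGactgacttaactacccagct
H2-Aa: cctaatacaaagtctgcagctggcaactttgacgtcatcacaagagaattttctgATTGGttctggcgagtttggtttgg
H2-Oa: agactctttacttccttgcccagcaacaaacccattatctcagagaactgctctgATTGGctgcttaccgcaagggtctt

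A match is a description of letters, and the absence of a match says only that these letters are not in the window.

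Per transcript length, Cd74 was the most abundant of the genes, with a mean of 2521 FPKM over the 10 libraries, rank 4 of all genes in the tables. The classical chain genes followed, H2-Eb1 at 629 FPKM, H2-Ab1 at 407 and H2-Aa at 295. H2-Eb1 was above H2-Ab1 in 10 of 10 libraries, and H2-Ab1 above H2-Aa in 10 of 10. H2-DMb2 had 275 FPKM and was not set apart from H2-Aa, which was the higher in 6 of 10 libraries. Next came H2-DMb1 at 78.8 FPKM and H2-Ob at 77.3, in no fixed order (H2-DMb1 higher in 5 of 10), then H2-Oa at 54.9, H2-DMa at 49.2 and Ciita at 42.7, which lay below H2-DMa in 7 of 10 libraries. Together the 10 genes made up between 1.18% and 1.50% of the summed FPKM of a library. From the lowest to the highest library, single genes spanned between 1.26-fold (H2-DMb1) and 1.67-fold (H2-Oa).

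H2-DMb1 and H2-DMb2 are near-identical neighbors, and the methods do not say how reads shared by both were assigned, so their split is uncertain. H2-DMb2 was listed at 2.83 to 3.89 times H2-DMb1. BALB/c mice carry the H2-d haplotype, whereas the reference genome is of an H2-b strain, and the part of allele differences in the levels was not tested. H2-Ea, the alpha partner of H2-Eb1, which H2-b strains do not express and which the reference therefore annotates as a pseudogene, was listed at 1417 FPKM, between Cd74 and H2-Eb1 in 10 of 10 libraries. H2-Eb2, a minor beta chain gene, had 9.38 FPKM.

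**Figure D1:**
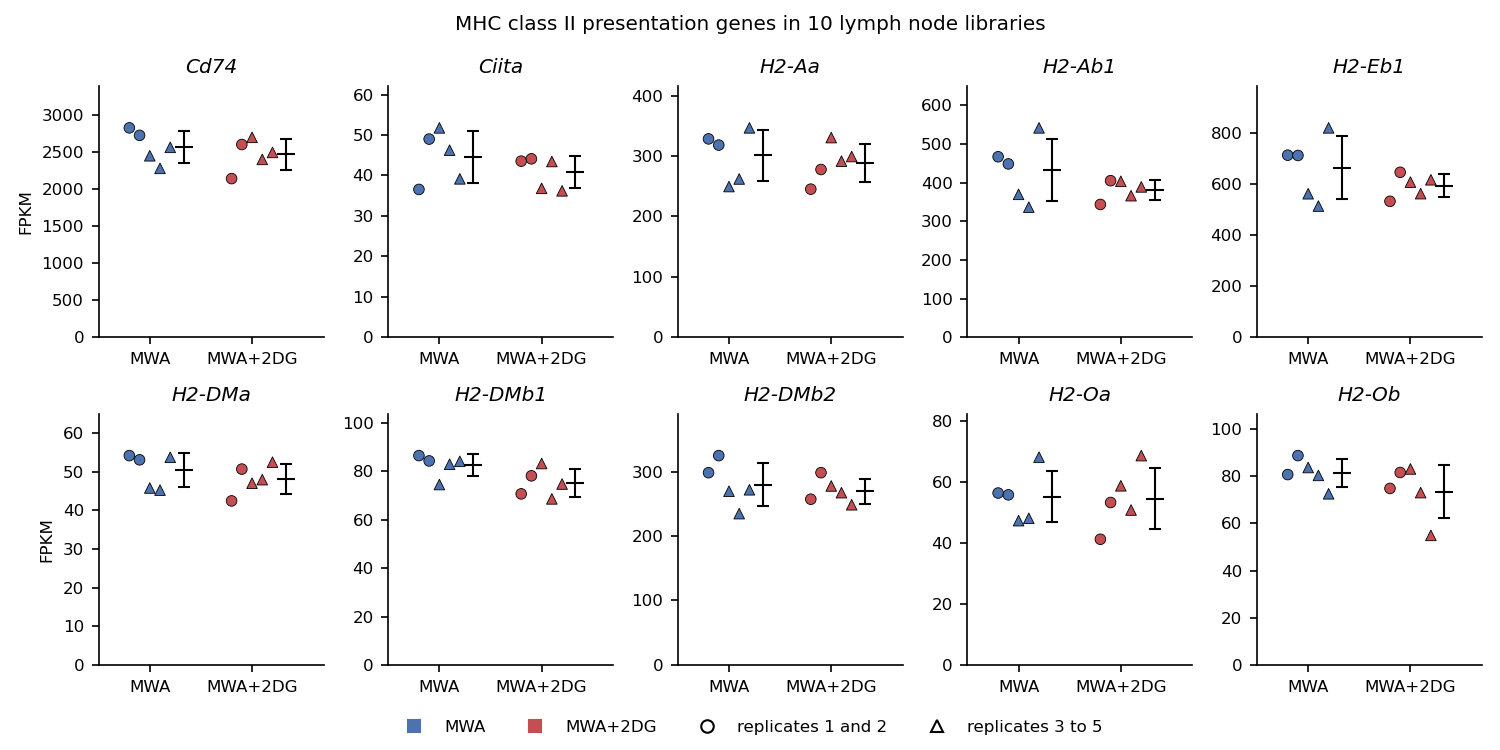
FPKM of each of the 10 MHC class II presentation genes (vertical axis, from 0) in the 5 MWA and 5 MWA+2DG libraries, with circles for replicates 1 and 2, triangles for replicates 3 to 5, and bars for the mean and SD of each group. The ranges of the groups overlapped for all 10 genes, and the MWA mean was the higher in each.

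No gene of the group passed a test between MWA+2DG and MWA. By the study's rule (limma, unadjusted P below 0.05 with a log2 fold change beyond 0.25), 0 of 10 were called, against 2.82% of all tested genes, of which 127 (0.952%) were higher and 249 (1.87%) lower in MWA+2DG (328 and 159 when each library was rescaled to one total). At an unadjusted P below 0.05 alone the counts were 0 of 10 and 4.25% (1.63% higher and 2.62% lower), and at a Benjamini-Hochberg adjusted p below 0.05 they were 0 of 10 and 0 of 13334, with 567 genes at an unadjusted P below 0.05. All adjusted p of the group were at least 0.995 (limma). The ranges of the groups overlapped for 10 of 10, and 0.802% of all tested genes had ranges that did not overlap.

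The fitted log2 fold changes lay between -0.16 (H2-Ab1) and -0.02 (H2-Oa), with a median of -0.09 against 0.01 over all tested genes. They were below 0 for 10 of 10 genes, as for 47.4% of all tested genes, but those of Cd74, H2-Aa, H2-DMb2 and H2-Oa turned positive when libraries were rescaled to one total or quantile normalized. The rescaling moved the median of all tested genes from 0.01 to 0.07, and that of the 10 genes to -0.03. The genes share libraries and vary together, so the 10 signs are not 10 observations.

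Cd74, the invariant chain, had 2829, 2728, 2452, 2282 and 2566 FPKM in MWA replicates 1 to 5 and 2143, 2604, 2701, 2403 and 2497 in MWA+2DG. The lowest library was MWA+2DG replicate 1 and the highest MWA replicate 1, with the others interleaved. Means were 2572 ± 217 and 2469.9 ± 214 FPKM, a log2 fold change of -0.06 with a 95% interval of -0.25 to 0.13 (limma P = 0.510, two-sided exact permutation p = 0.484). On the FPKM + 1 scale the interval runs from 15.8% lower to 9.51% higher in MWA+2DG.

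Of the classical chains, H2-Ab1 had 467, 448, 369.5, 336 and 542 FPKM in MWA and 343, 405, 403, 366 and 389 in MWA+2DG. All 5 MWA+2DG values lay within the MWA range and below the MWA mean, and the MWA libraries were the more spread, with SDs of 81.4 and 26.3 FPKM. The means were 432 and 381 FPKM and the log2 fold change -0.16 ± 0.12 (SE, limma P = 0.213, exact permutation p = 0.246), with an interval of -0.44 to 0.11. Without MWA replicate 5, its highest library, the log2 fold change was -0.08, and without MWA replicate 4, its lowest, -0.25. H2-Eb1, the other classical beta chain gene, had means of 664 ± 125 and 593 ± 45.3 FPKM (-0.15, exact permutation p = 0.310). Its values were 713, 712, 562, 514 and 820.2 FPKM in MWA and 532, 646, 608, 562 and 617 in MWA+2DG, where the highest and the lowest library were again both of the MWA group, and its log2 fold change was -0.06 without MWA replicate 5 and -0.23 without MWA replicate 4. H2-Aa, the alpha partner of H2-Ab1, was at 301 ± 42.8 and 289 ± 31.2 FPKM (-0.05, exact permutation p = 0.635). The chains outside the group, H2-Ea at 1488 ± 207 and 1346 ± 114 FPKM (-0.14, exact permutation p = 0.238) and H2-Eb2 at 10.3 ± 1.96 and 8.49 ± 1.91 (-0.25, exact permutation p = 0.238), did not pass either.

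Among the editors, H2-DMb1, a beta chain gene of the peptide exchanger H2-DM, had the smallest P of the group. Its values were 86.5, 84.3, 74.5, 82.9 and 84.1 FPKM in MWA and 70.7, 78.1, 83.2, 68.6 and 74.7 in MWA+2DG. In MWA 4 of 5 libraries stood between 82.9 and 86.5 FPKM with replicate 3 below them, and in MWA+2DG replicate 3 alone reached that range. The means were 82.5 ± 4.62 and 75.1 ± 5.85 FPKM, a log2 fold change of -0.14 ± 0.07 (SE) with an interval of -0.30 to 0.03 (limma P = 0.0954, exact permutation p = 0.0794, adjusted p = 0.651 over the 10 genes' exact tests). Its P fell to 0.0494 without MWA replicate 3, to 0.0463 without MWA+2DG replicate 3 and to 0.0474 with no expression filter. H2-DMb2 (280 ± 33.8 and 269.7 ± 19.3 FPKM, exact permutation p = 0.635) and the alpha chain gene H2-DMa (50.4 ± 4.48 and 48.1 ± 3.84 FPKM, exact permutation p = 0.413) differed by less than the spread of the libraries.

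The H2-DO genes had unlike patterns over the libraries. H2-Ob, its beta chain gene and a product typical of B cells, had 80.6, 88.7, 83.6, 80.3 and 72.5 FPKM in MWA and 74.8, 81.5, 83.0, 73.0 and 54.9 in MWA+2DG. Replicate 5 was the lowest library of each group. The log2 fold change was -0.15 with an interval of -0.40 to 0.09 (limma P = 0.198, exact permutation p = 0.254), and it was -0.05 without MWA+2DG replicate 5. H2-Oa, the alpha chain gene, had 56.5, 55.9, 47.4, 48.2 and 68.2 FPKM in MWA and 41.3, 53.4, 58.8, 50.9 and 68.8 in MWA+2DG. Here replicate 5 was the highest library of each group, and the group means of 55.2 ± 8.41 and 54.6 ± 10.1 FPKM nearly coincided (-0.02, interval -0.33 to 0.29, exact permutation p = 0.913).

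Ciita had 36.5, 49.0, 51.8, 46.3 and 39.2 FPKM in MWA and 43.5, 44.1, 36.8, 43.5 and 36.2 in MWA+2DG. All 5 MWA+2DG values were below the MWA mean, but MWA replicate 1 was as low as the lower MWA+2DG libraries. The log2 fold change was -0.12 with an interval of -0.36 to 0.13 (limma P = 0.313, exact permutation p = 0.325).

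**Figure D2:**
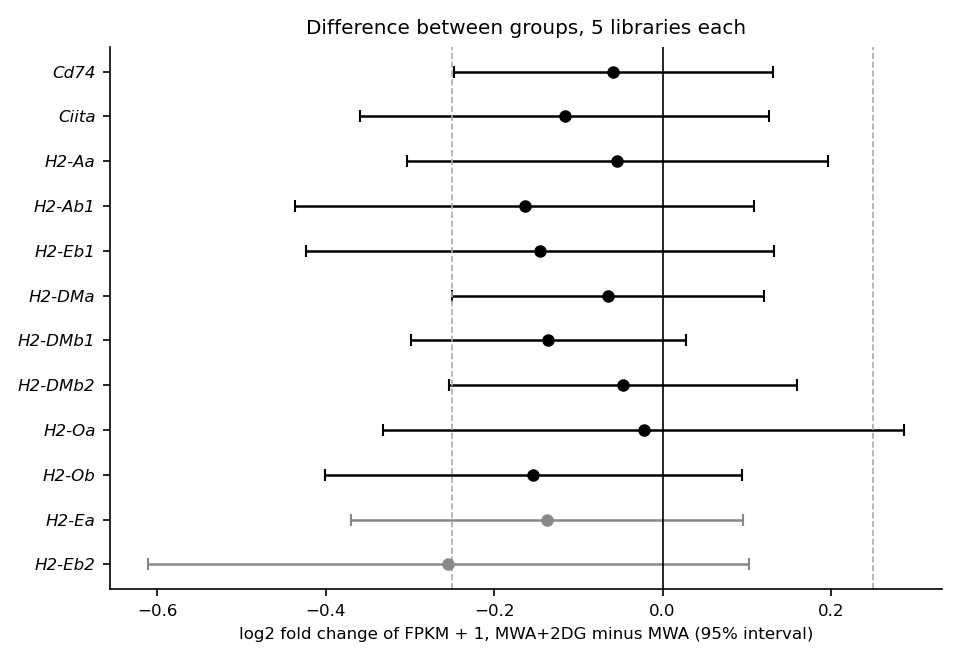
Log2 fold change of FPKM + 1, MWA+2DG minus MWA (horizontal axis), with 95% intervals from limma for the 10 genes (black) and for H2-Ea and H2-Eb2 (gray). All 12 intervals include 0, the dashed lines mark the study's fold threshold of 0.25, and the point of H2-Eb2 lies at -0.25.

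Within the replicate sets the differences were not the same for all genes. In replicates 1 and 2 the MWA+2DG mean was the lower for 9 of the 10 genes, for example by -0.31 for H2-Aa, -0.29 for H2-Ab1, -0.28 for H2-Eb1 and -0.23 for Cd74 on the log2 scale, with Ciita at 0.05. In replicates 3 to 5 the values were 0.12 for H2-Aa, -0.08 for H2-Ab1, -0.06 for H2-Eb1, 0.06 for Cd74 and -0.23 for Ciita. The test of the difference between sets, a treatment by set term added after the data were seen, gave its largest value for H2-Aa (0.42) and called 0 of 10 genes at P below 0.05, against 2.56% of all tested genes, and all 10 had an adjusted p of 0.9999 (limma). With labels exchanged only within sets the exact permutation p of the 10 genes ranged from 0.117 (H2-DMb1) to 0.9 (H2-Oa), where 0.0167 is the smallest possible.

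Although the groups did not separate, many of the genes moved together from library to library on the deposited scale. This is given here as a description over 10 libraries. Of the 45 pairs, 35 had a Pearson r above 0. Cd74, H2-Aa, H2-Ab1, H2-Eb1 and H2-DMa formed a block, picked from these same values, in which all 10 pairs had r between 0.73 and 0.99. Within replicates 3 to 5 the r of these pairs ran from 0.40 (Cd74 with H2-DMa) to 0.99. With the log2 summed FPKM of the library, r was 0.787 for H2-Ab1, 0.749 for H2-Eb1, 0.475 for H2-DMa, 0.402 for H2-Aa and 0.257 for Cd74. The part of the library total in the block was not tested. H2-Oa, left outside the block, had r of 0.63 (Cd74) to 0.82 (H2-Aa) with its genes over all libraries. H2-Ab1 and H2-Eb1 were nearly proportional (r = 0.99), and their ratio stayed between 1.51 and 1.60 in the 10 libraries, a coefficient of variation of 2.14%, although each of them varied by over 15%. The alpha to beta ratios were looser, with H2-Aa at 0.640 to 0.820 of H2-Ab1 and H2-Ea at 1.93 to 2.54 of H2-Eb1.

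The chains of H2-DO went apart, with r = -0.46 between H2-Oa and H2-Ob, and the ratio of H2-Oa to H2-Ob ran from 0.552 to 1.25 with a coefficient of variation of 29.3%. Its 2 highest values were those of replicate 5 in each group, 0.941 in MWA and 1.25 in MWA+2DG, and the other 8 lay between 0.552 and 0.709. Ciita, the coactivator, varied apart from most of the other genes: 7 of its 9 correlations with them were below 0, down to -0.64 with H2-Oa and -0.62 with H2-Aa, and the highest was 0.53 with H2-Ob.

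**Figure D3:**
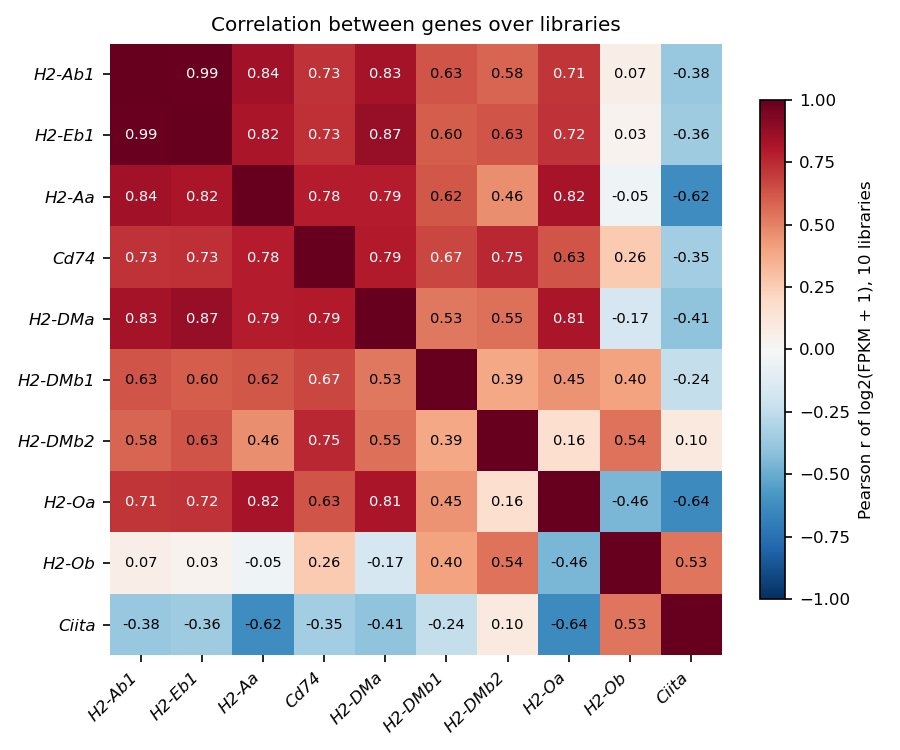
Pearson r of log2(FPKM + 1) over the 10 libraries for each pair of the 10 genes, on a color scale from -1 (blue) to 1 (red). The 5 genes at the upper left form a block with r from 0.73 to 0.99, while H2-Ob and Ciita, in the last rows, stand outside it.

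The genes whose pattern over the 10 libraries was most like the mean of Cd74, H2-Aa, H2-Ab1 and H2-Eb1 were, outside the group, Ndufs3 (r = 0.968), Rpl38 (0.956), Pfdn5 (0.949), Ubxn1 (0.939), Gm13436 (0.939), Mrpl53 (0.937), Gm4332 (0.936) and Rpl30-ps10 (0.934). Of all tested genes 51, or 0.382%, had r of at least 0.9. That count includes H2-Ab1 (0.973), H2-Eb1 (0.969) and H2-Aa (0.922), which enter the mean themselves. No B cell or dendritic cell gene of the lists used here was among these 8. Because Rpl38 encodes a ribosomal protein, the mean of 79 ribosomal protein genes was set beside the group, a choice made after these values were seen. Its r was 0.928 with H2-Ab1, 0.904 with H2-Eb1, 0.862 with H2-Aa, 0.756 with H2-DMa and 0.636 with Cd74, but -0.114 with H2-Ob and -0.603 with Ciita. The ribosomal mean was highest in MWA replicate 5 at 8.33 and lowest in MWA replicate 4 at 7.61, the libraries in which H2-Ab1 and H2-Eb1 were highest and lowest. The part of whatever moves the ribosomal protein genes in the class II levels was not tested.

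To relate the group to B cells, each gene was compared with the mean log2(FPKM + 1) of 18 B cell genes (Ms4a1, Cd79a, Cd79b and others), and to relate it to dendritic cells, with the mean of 35 genes from lists of pan dendritic cells, cDC1, cDC2 and migratory dendritic cells. In whole nodes, fewer cells of a type and less RNA per cell cannot be told apart. The listed genes may also be expressed by other cells of the node, which was not tested. Among the 35 dendritic cell genes, Tmem123 had a mean of 172 FPKM and Flt3 of 4.13. H2-Ob followed the B cell genes (r = 0.859, permutation p = 0.00062 and 0.0124 after adjustment over the 20 relations computed; Spearman rho = 0.830, permutation p = 0.00482, adjusted 0.0964). The correlation was 0.810 without MWA replicate 2 and MWA+2DG replicate 5, the libraries farthest from the median of the B cell mean, and 0.880 within the 6 libraries of replicates 3 to 5. Outside the B cell list and H2-Ob itself, 26 of 13315 genes, or 0.195%, had an r with the B cell mean at least as high. Replicates 1 and 2 hold 4 libraries, too few for a correlation of their own.

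Ciita had the second highest r with the B cell mean, 0.658 (permutation p = 0.0369, adjusted p = 0.246), a value matched or exceeded by 6.98% of genes, and it was 0.417 without the 2 farthest libraries. The classical chains had r of -0.10 for H2-Aa, -0.04 for H2-Ab1 and -0.02 for H2-Eb1 over all libraries, and of -0.63, -0.58 and -0.66 within replicates 3 to 5. Without the 2 farthest libraries their r was -0.40, -0.45 and -0.42. H2-Oa was at -0.38 over all libraries and at -0.93 within replicates 3 to 5, and H2-DMa at -0.01 and -0.95, so that over those 6 libraries all 5 had a negative r. Against the dendritic cell mean the highest r was that of H2-DMb2, 0.675 (permutation p = 0.0321, adjusted p = 0.246), which was 0.305 without MWA replicates 1 and 2, and H2-Ob had 0.540.

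**Figure D4:**
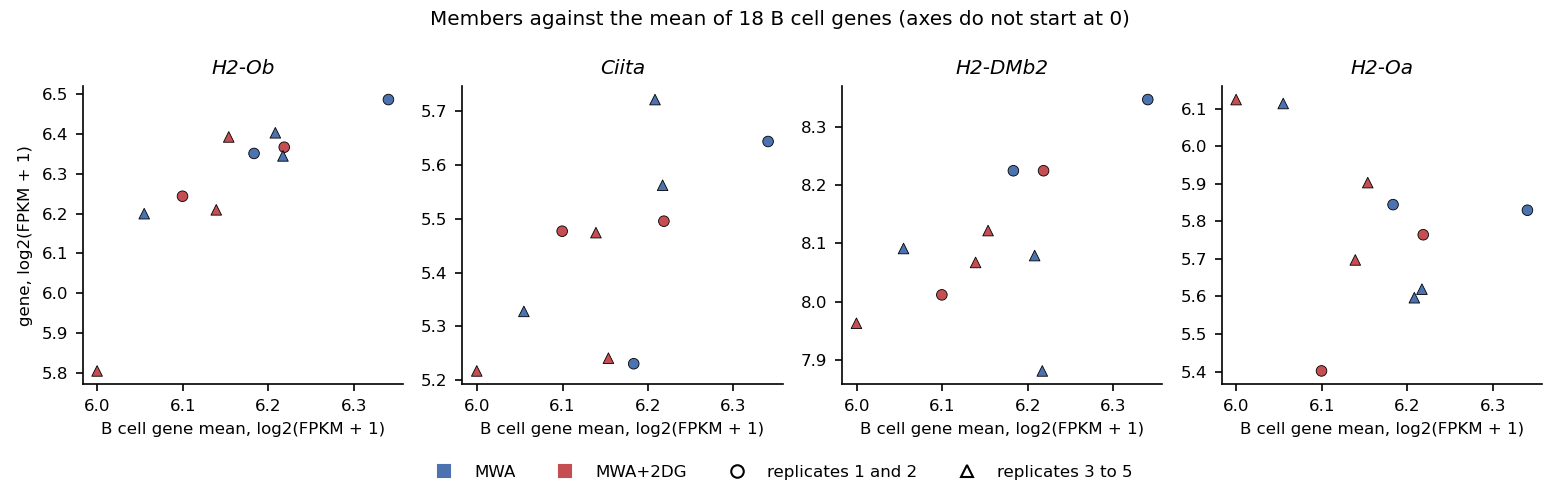
Log2(FPKM + 1) of H2-Ob, Ciita, H2-DMb2 and H2-Oa (vertical axes) against the mean log2(FPKM + 1) of 18 B cell genes (horizontal axis) in the 10 libraries, with colors for the groups and circles for replicates 1 and 2. H2-Ob lies along a rising line (r = 0.859), and H2-Oa has its 2 highest values in the libraries with the lowest B cell mean.

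Single markers, picked after their values were seen, went different ways within both cell types. H2-Ob had r = 0.870 with Fcer2a, the low-affinity IgE receptor gene of follicular B cells, but 0.336 with Cd79b and -0.339 with Cd79a. With dendritic cell genes it had 0.791 with Flt3, a receptor gene, 0.339 with Xcr1 and -0.746 with Itgax, and with the class II chain gene H2-Eb2 it had 0.866. H2-Oa had 0.934 with Cd79a and -0.487 with Fcer2a. Ciita had 0.829 with Spib and 0.772 with Ms4a1, the CD20 gene. MWA+2DG replicate 5, which had the lowest H2-Ob and the highest H2-Oa to H2-Ob ratio, also had the lowest B cell mean, 6.0 against 6.05 to 6.34 in the other libraries. In the same library the mean of 12 interferon gamma response genes was highest, 6.29, followed by 5.59 in MWA replicate 4, with 3.90 to 4.43 in the other 8. Their part in the level of H2-Ob was not tested.

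Taken relative to the B cell mean of the same library, the 10 genes differed between MWA+2DG and MWA by -0.09 to 0.06 on the log2 scale, with two-sided exact permutation p from 0.429 to 0.873. H2-Ob relative to B cell genes was at 0.156 ± 0.0258 in MWA and 0.0813 ± 0.166 in MWA+2DG (exact permutation p = 0.429), and without MWA+2DG replicate 3 its p was 0.0635. Relative to the dendritic cell mean the differences were -0.13 to 0.01, with exact permutation p from 0.246 to 0.976. No adjusted value over these 20 tests was below 0.976.

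The transcription factors of class II genes showed no call at P below 0.05 among 13 tested (limma), with a median log2 fold change of -0.02. Of the RFX subunits that bind the X box, Rfx5 was at 14.9 ± 2.22 and 14.6 ± 1.28 FPKM, Rfxap at 6.71 ± 0.299 and 7.49 ± 1.10, and Rfxank at 9.59 ± 0.993 and 8.60 ± 1.04. Spib, an Ets factor of B cells, had 137 ± 17.6 and 123 ± 12.6 FPKM, and Irf8, a factor of B and dendritic cells, 68.8 ± 6.0 and 66.3 ± 12.7. Prdm1, which encodes a repressor of Ciita in plasma cells, had the smallest P in this list (2.01 ± 0.396 and 1.59 ± 0.251 FPKM, exact permutation p = 0.0952).

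The proteases and reductases that prepare antigen and invariant chain gave 0 calls of 12, median -0.05. Ctss, the cathepsin that trims the invariant chain in B and dendritic cells, stood at 203 ± 22.5 and 208 ± 52.8 FPKM. Ifi30, the lysosomal thiol reductase, had 444 ± 33.2 and 415 ± 43.3 FPKM, Cst3, a cathepsin inhibitor, 221 ± 50.0 and 209.7 ± 17.1, and Ctsh, a cathepsin with the smallest P here, 52.3 ± 8.78 and 45.4 ± 3.53 (exact permutation p = 0.159). Of the 8 genes that govern class II turnover and its surface neighbors, 0 were called, median -0.08. Cd83, which shields class II molecules from the ubiquitin ligase encoded by Marchf1, came nearest, with 144 ± 22.2 FPKM in MWA and 110.0 ± 28.2 in MWA+2DG (-0.42 ± 0.19 (SE), limma P = 0.0508, exact permutation p = 0.0794). Marchf1 itself had 12.7 ± 1.3 and 11.3 ± 1.37 FPKM.

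Of 9 genes listed as costimulation and T cell partners, 1 had an unadjusted limma P below 0.05, against 4.25% of all tested genes. By the study's rule 0 were called. Cd40, Cd86, Cd80 and Icosl on the presenting side had log2 fold changes of -0.16, -0.11, -0.05 and 0.03 and did not reach that P. On the T cell side Cd4, the coreceptor for class II, was higher in MWA+2DG at P below 0.05 (29.4 ± 4.07 and 34.5 ± 3.21 FPKM, log2 fold change 0.23, limma P = 0.0489, exact permutation p = 0.0794, adjusted p = 0.995), the sole call of 9 tested genes. The list of T cells as a whole had 2 of 11 called higher (Cd8a and Cd4), against 1.63% of all tested genes, and a median of 0.16. Its fitted values were above 0 for 11 of 11 genes, as for 7011 of 13334 tested genes. The genes of the list share libraries, so the 11 signs are not 11 observations. The MHC class I genes (H2-K1, H2-D1, B2m and others) gave 0 calls of 10 with a median of 0.13, and the interferon gamma response genes 0 of 12 with a median of 0.18. Both lists were highest in MWA+2DG replicate 5. The class I mean log2(FPKM + 1) was 7.49 there, 6.66 to 6.77 in the other MWA+2DG libraries and 6.59 to 6.89 in MWA. For the interferon gamma list these values were 6.29, 3.90 to 4.43 and 4.08 to 5.59. Whether class I and class II genes differ in their response was not tested.

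**Figure D5:**
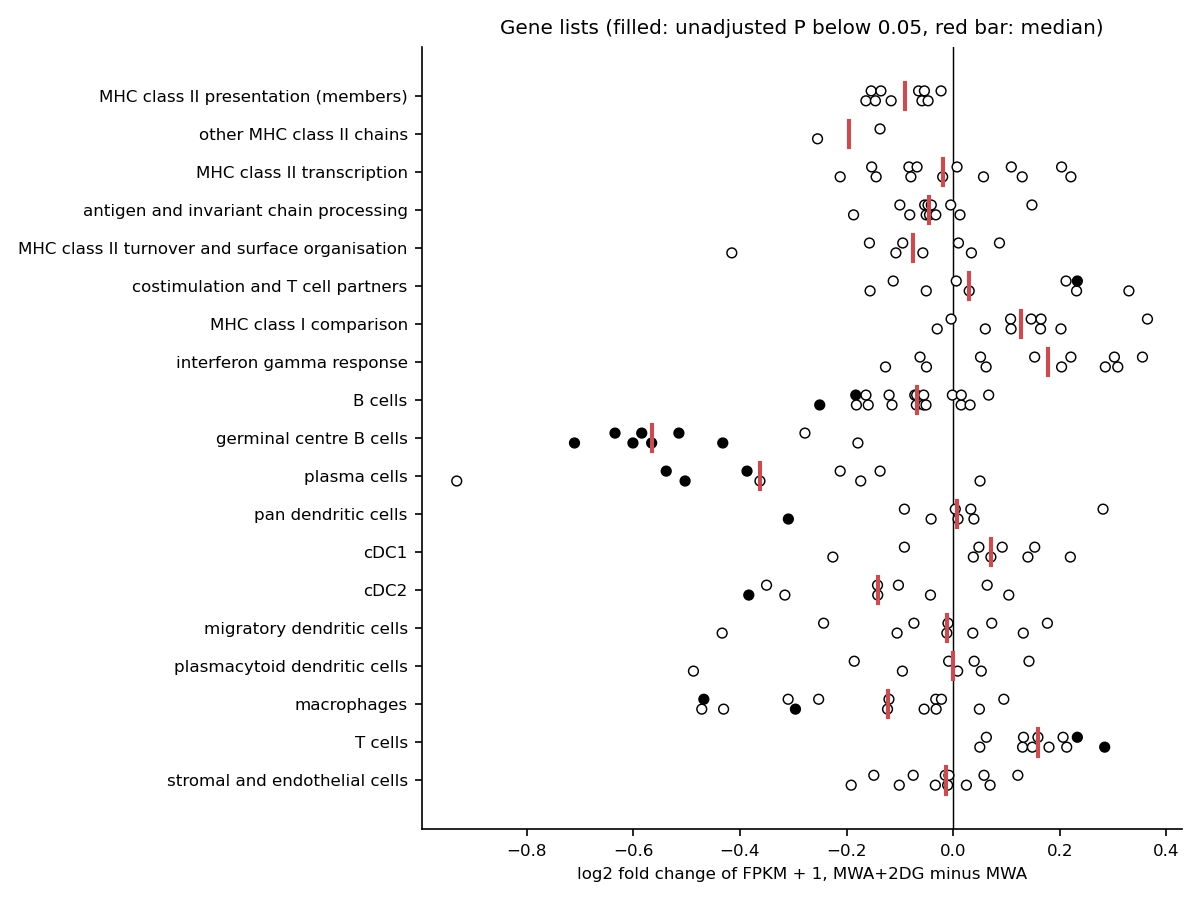
Log2 fold change of FPKM + 1, MWA+2DG minus MWA (horizontal axis), for each tested gene of 19 lists, with filled points for an unadjusted limma P below 0.05 and a red bar for the median of the list. The 10 class II genes (top) have no filled point and a median of -0.09, and the germinal centre B cell list has 7 filled points of 9 and a median of -0.57.

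Genes of the cells that carry class II were called in unequal numbers, where 2.62% of all tested genes were lower at P below 0.05. Of the 18 B cell genes 2 were lower in MWA+2DG at P below 0.05, Pou2af1 (233 ± 28.0 and 195 ± 13 FPKM, exact permutation p = 0.0317), a coactivator of immunoglobulin genes, and Blnk, a signaling adaptor (28.1 ± 1.44 and 24.7 ± 2.13 FPKM, exact permutation p = 0.0317), with a median of -0.07 for the list, close to the -0.09 of the class II genes. The germinal centre list had 7 of 9 genes lower, among them Rgs13, a regulator of G protein signaling (23.7 ± 4.17 and 15.1 ± 3.44 FPKM, exact permutation p = 0.0238), and the summed FPKM of its genes was 166 to 282 in MWA and 108 to 177 in MWA+2DG. Plasma cell genes had 3 of 9 lower, median -0.36, and summed to 340.2 to 855 and 262 to 535 FPKM. Within replicates 1 and 2 the log2 differences of these 3 were 0.08 for Xbp1, -0.09 for Mzb1 and -0.33 for Eaf2. In replicates 3 to 5 they were -0.70, -0.775 and -0.67. For Rgs13 the values of the 2 sets were -0.30 and -0.86. The part of these lists in the class II levels was not tested, and none of these calls had an adjusted p below 0.995.

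Dendritic cell genes gave few calls, where 4.25% of all tested genes had an unadjusted P below 0.05 and 2.62% were lower at that P. Of 8 pan dendritic cell genes 1 was lower (Cd24a), while the defining Flt3, Zbtb46 and Itgax were all detected, at 4.18 ± 0.677 and 4.08 ± 0.962, 2.05 ± 0.514 and 2.06 ± 0.441, and 5.09 ± 1.15 and 5.20 ± 1.81 FPKM. The cDC1 list, with Xcr1 (1.83 ± 0.230 and 2.15 ± 0.586 FPKM) and Clec9a, had 0 of 9 called and a median of 0.07. The cDC2 list had 1 of 9 (Clec10a, 5.35 ± 0.924 and 3.90 ± 0.972 FPKM, exact permutation p = 0.0476) and a median of -0.14, with Cd209a at 3.12 ± 0.829 and 2.29 ± 0.854. The migratory dendritic cell list, with Ccr7 at 76.7 ± 13.8 and 85.9 ± 7.44 FPKM and Fscn1 at 63.3 ± 21.7 and 64.0 ± 8.54, had 0 of 10, and the plasmacytoid dendritic cell list, with Siglech at 7.89 ± 1.76 and 5.92 ± 3.42, 0 of 8. How much of the RNA of the listed genes, Ccr7 among them, came from other cells of the node was not tested. Of 14 macrophage genes 2 were lower, Lyz2 (1690 ± 349 and 1218 ± 211 FPKM, exact permutation p = 0.0317) and Csf1r (28.4 ± 4.52 and 22.9 ± 3.58). The macrophage list had a median of -0.12, with 12 of 14 fitted values below 0, against 47.4% of all tested genes. Its genes share libraries, so these signs are not separate observations. The stromal and endothelial list had 0 of 12 called.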

How the data were processed

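Bulk RNA-seq was measured in 10 TDLN libraries, grouped by their labels as MWA (5) and MWA+2DG (5). The authors deposited 1 table of FPKM per library, from StringTie and ballgown after mapping with HISAT2. The submitters' processing notes list cutadapt 1.9, HISAT2 2.0.4, UMI-tools, StringTie 1.3.4d and the build mm9, whereas the methods name fastp. Neither the gene annotation nor any use of molecular identifiers in the quantification is stated. FPKM is divided by length and mapped fragments, so depth and counting error are unknown, and the libraries' summed FPKM ranged from 312143 to 359984. The library kit keeps strand by dUTP. How strand was set in the quantification is not stated.

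Symbols were matched for 33541 of 33643 identifiers, and where several identifiers shared a symbol (57 symbols) their values were added. Genes averaging 1 FPKM or more were tested on the log2 scale after adding 1 to the deposited FPKM, by limma (3.58.1, R 4.3.3) without covariates, with Benjamini-Hochberg adjustment over 13334 genes. A fold change on this scale understates that of low genes. The fit was tested on simulated data. Single genes were also compared by two-sided exact permutation over 252 regroupings, with a smallest p of 0.00794. Correlations used 100000 resamples (Python 3.11.15, scipy 1.17.1). The rule for named genes took all 10 class II genes, fixed markers, the 2 genes of smallest P per list, and the 8 genes most alike in pattern. The results of some genes it selects are left out. The genes, the 20 lists and the replicate sets were chosen with earlier results of these data known. Promoter sequences came from RefSeq (GRCm38.p6). The FPKM tables hold no coordinates, so no build was mixed. Alternatives changed the pseudocount (0.1), the filter (none, or a mean of 5 FPKM), the scaling, the model and the libraries.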

Additional observations from a re-analysis of the deposited data

Results flagged for a closer look

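For the 10 class II genes and 28 other genes named by rule, each group of 5 libraries was examined for a library set far from the other 4, and 2 of 76 groups held one, where chance gives about 1 in 20. H2-DMb1 in MWA replicate 3 was at 74.5 FPKM, against 82.9 to 86.5 in the other MWA libraries. Lgmn, the gene of an asparaginyl endopeptidase that acts on the invariant chain, was at 49.3 FPKM in MWA+2DG replicate 5, against 31.4 to 34.9 in the other MWA+2DG libraries.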

How the results depend on the processing

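Across 19 alternatives, 0 of 10 class II genes were called by the study's rule in any of them, and the median log2 fold change of the 10 genes stayed between -0.11 and -0.03. At an unadjusted P below 0.05 the count was 1 with no filter (H2-DMb1) and 0 to 1 when single libraries were left out: H2-DMb1 without MWA replicate 3 or MWA+2DG replicate 3, and H2-Ab1 (-0.25) without MWA replicate 4. Rescaling each library to a total of 1000000 gave log2 fold changes of 0.00550 for Cd74, 0.00997 for H2-Aa, 0.0169 for H2-DMb2 and 0.0407 for H2-Oa, and quantile normalization gave 0.122, 0.0268, 0.00593 and 0.0214, all positive where the deposited scale gave negative values. Leaving out single libraries, H2-Aa ranged from -0.12 to 0.00336, H2-DMb2 from -0.11 to 0.00870 and H2-Oa from -0.11 to 0.0715. Over all genes, calls higher and lower in MWA+2DG were 69 and 161 with a filter of 5 FPKM, which tests fewer genes, and 328 and 159 after rescaling, for which the cause was not tested. Without single libraries they ranged from 80 to 222 and from 177 to 315 (127 and 249 with all): the higher genes numbered 200 without MWA replicate 1, 80 without MWA replicate 5, 83 when MWA+2DG replicate 1 was left out and 222 when its replicate 5 was. Calls at an adjusted p below 0.05 ranged from 0 to 1 (1 without MWA replicate 2). The replicate block gave 164 higher and 285 lower genes and called 0 of the 10. Same-numbered libraries deviated together with correlations of 0.0334 to 0.501, not all above 0.1, and 3 of 10 libraries correlated best with their own number, so the numbers were not taken to pair the libraries. Relative to the B cell and the dendritic cell genes, no alternative moved a gene below an exact p of 0.05, apart from the block, whose test over 5 pairs cannot go that low and says nothing here. Depth is unknown, and with 5 libraries a group the intervals of the 10 genes left differences of up to 26.1% lower and 22% higher within reach.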
